A study of Mus musculus with 16 samples.

Results

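The subject here is the proteasome, described through the messenger RNAs of its subunits and of the activators and chaperones named with them. The members were the protein-coding genes of the deposited expression table whose symbol was Psma, Psmb, Psmc, Psmd or Psme followed by a number, a choice that used no measured value. There were 43 such genes among 35275 rows of the table, of which 22026 were protein-coding. Of these 43, 39 passed the filter on low values (a mean of at least 0.5 FPKM, fragments scaled to gene length and library depth, over the 16 libraries) and were tested together with the rest of the 11832 genes that passed it.

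The proteasome is the cell's main machine for breaking down proteins that carry ubiquitin. A barrel-shaped core particle, built from rings of alpha and beta subunits, holds the cutting sites inside, and a regulatory particle on its ends recognises ubiquitin, removes it, and unfolds the substrate with a ring of ATPases. In skeletal muscle this pathway is known for the turnover of myofibrillar proteins, and ligases such as Trim63 (MuRF1) and Fbxo32 (atrogin-1) deliver substrates to it during atrophy.

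The cells were C2C12, immortal mouse myoblasts that form myotubes in low serum, here described as Pax7-negative. Control cells were 2 populations, and knockout cells were 2 single clones lacking miR-1a-1, miR-1a-2 and also miR-206 (tKO), muscle microRNAs with a common seed. Growing cells (GM) were collected near confluence in 20% foetal bovine serum, and differentiating cells (DM3) after 3 days in 2% horse serum. Each line gave 2 libraries at each stage, numbered 1 and 2 in the labels and called culture 1 and 2 here, although it is not stated whether the number marks a culture, a day or an extraction. This made 4 groups of 4 libraries (control and tKO, each in GM and in DM3). Values of a group are listed below as line 1 cultures 1 and 2, then line 2 cultures 1 and 2, with clone 1 and clone 2 in place of the lines for tKO. Since the groups of 4 hold only 2 lines, the p-values measure the spread between these libraries, which may be partly technical, and a difference between genotypes rests on 2 clones.

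The libraries held 22642563 to 56585952 fragments, of which the members took 0.435% to 0.684%. The marker genes of proliferation (5 genes) summed to 320 to 364 FPKM in control GM and 75.1 to 93.7 in control DM3, and to 259 to 370 and 32.0 to 103 in tKO cells. Those of myotubes (8 genes) summed to 9.12 to 12.7 FPKM in control GM and 852 to 1355 in control DM3, and to 10.8 to 73.1 and 341 to 1437 in tKO cells, so the stages did not overlap in either marker sum. 1 library stood apart in interferon genes: in tKO GM clone 2 culture 2 the 12 listed genes of that pathway summed to 149 FPKM, against 24.7 to 40.8 in the other 7 GM libraries, and it was the highest of the 8 for 8 of the 9 tested. The myoblast markers (4 genes) summed to 59.7 to 77.5 FPKM in control GM and 314.7 to 474.5 in control DM3. In tKO cells they summed to 45.55 to 93.3 and 136.7 to 378.2. Of these, Myod1, a defining myoblast gene, had 0 fragments in control GM and at most 3 in any tKO GM library. The means of Myf5, Des and Cdh15 in control GM were 17.0, 39.5 and 9.79 FPKM. Markers of other cell types summed to at most 0.337 FPKM. Poly(A) libraries do not measure mature microRNAs, so the deletions themselves were not checked. In DM3 the host transcript of Mir206 counted 59 to 608 fragments for control libraries against 14 to 152 for tKO libraries. In GM it counted 0 to 4 for control libraries and 0 for tKO libraries.

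Subunit mRNAs were abundant and uneven. In control GM the highest means were those of Psmd2, a scaffold of the regulatory particle (209 ± 13.6 FPKM, SD, n = 4), Psmb1, a structural beta subunit (198 ± 11.3 FPKM), and Psmc1, an ATPase (187 ± 7.18 FPKM). Each neighbouring pair in this order differed by less than the larger of its SDs. The lowest among the genes tested were Psmd9, an assembly chaperone (12.7 ± 1.54 FPKM), Psmb10, an inducible catalytic subunit (14.4 ± 0.805 FPKM), and Psme1, a subunit of the PA28 activator (14.6 ± 1.40 FPKM). The remaining 4 members were at or near 0 in these libraries. Psma8, a core subunit of the testis, had 0 fragments in each library, which allows up to 3 fragments a library. Psmb11, the thymus catalytic subunit, had 1 fragment in 1 library and 0 in the other 15. Psmb8 and Psmb9, the interferon-inducible catalytic subunits, had 0 to 8 and 0 to 9 fragments. No fold is given for these 4 genes.

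**Figure D1:**
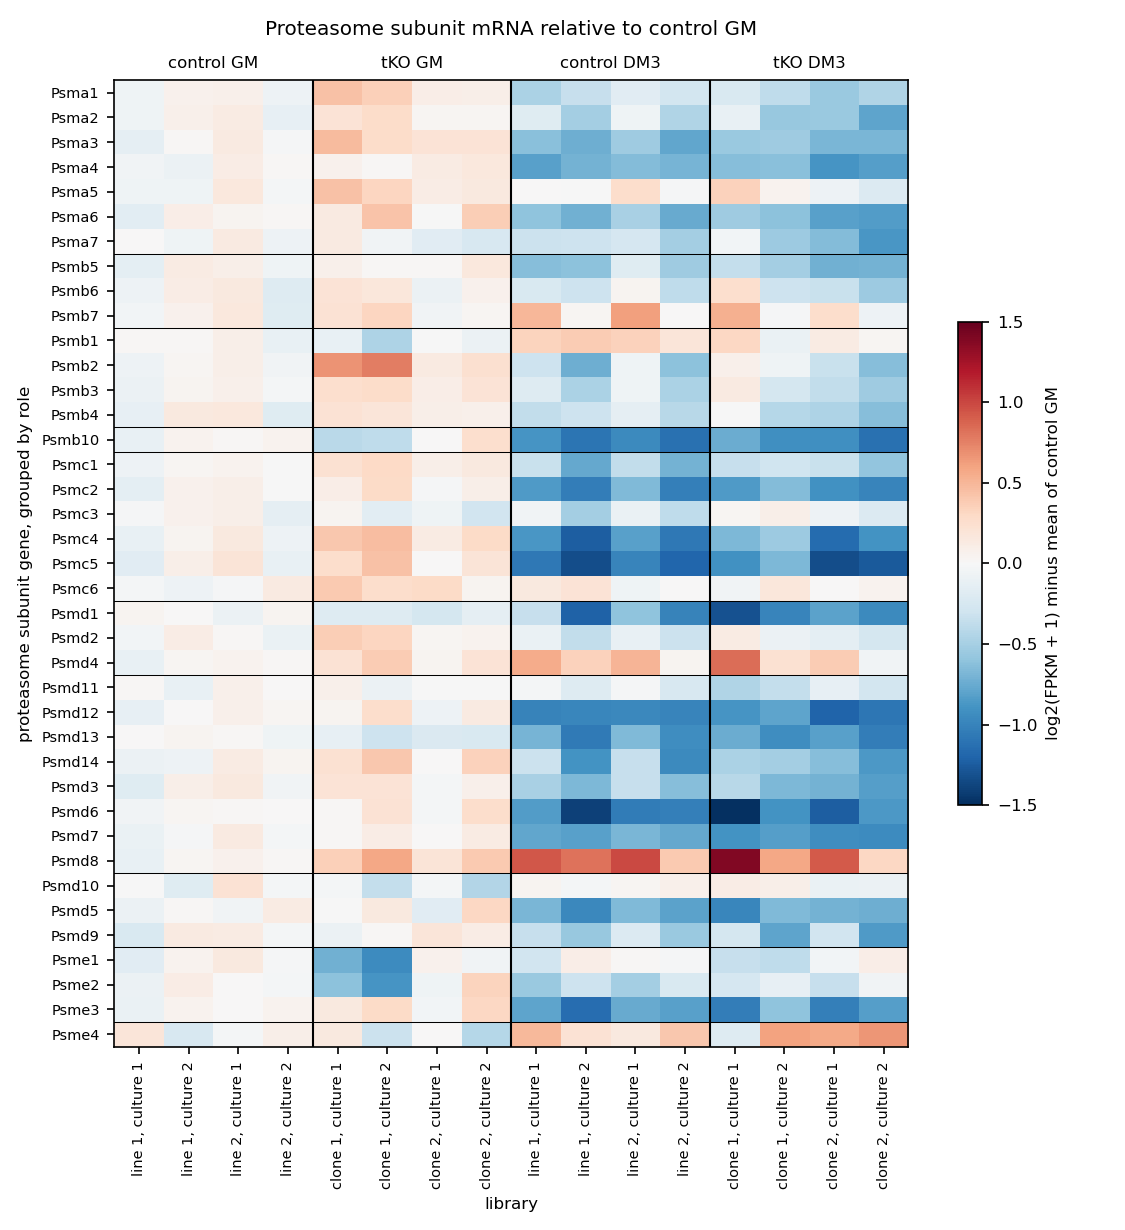
Each row is 1 of the 39 proteasome subunit genes tested, grouped by role with horizontal lines, and each column is 1 of the 16 libraries. Colour gives log2(FPKM + 1) minus the mean of the 4 control GM libraries, on a scale from -1.5 to 1.5. Most rows are blue in both DM3 blocks, while Psmd8 and Psmb1 are red in control DM3, and Psme1 and Psme2 are blue in clone 1 in GM.

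With differentiation most subunit mRNAs fell, in control and tKO cells. In control cells 23 of the 39 tested were lower in DM3 and 2 were higher (limma on log2(FPKM + 1), Benjamini-Hochberg adjusted p under 0.05 over 11832 genes), against 38.3% of genes called lower and 23.2% called higher over the whole table, 61.5% in all. In tKO cells 27 were lower and 1 was higher, against 36.0% and 24.9%, 60.9% in all. The median change of the 39 was -0.42 log2 in control and -0.65 in tKO cells, where the medians of all tested genes were -0.15 and -0.12. The 23 called lower in control cells were also called lower in tKO cells, 100% of the control list and 85.2% of the tKO list. The 4 others called lower in tKO cells were Psma2, Psmb3, Psmd11 and Psmd2, whose control changes were -0.30, -0.30, -0.12 and -0.23 log2. With line and culture as a block, Psma2 and Psmb3 were called lower in control cells too (adjusted p = 0.0405 and 0.0410). In bulk libraries fewer cells of a type and less RNA per cell cannot be told apart.

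The fall was mostly within 1 log2 unit and depended in part on scaling. Only Psmb10, Psmc5 and Psmd6 were called with a change beyond 1 log2 unit in control cells, and Psmc4, Psmc5, Psmd12, Psmd6 and Psme3 in tKO cells. The share of all genes beyond that size is not given, so these counts are not set against all genes. Under median-of-ratios scaling, which brings the median of all tested genes to 0.01 log2 in both genotypes, 17 were lower and 6 higher in control cells (median -0.23), and 22 lower and 4 higher in tKO cells (median -0.48). The shares of all genes called that are given above belong to the main scaling. None is given for this scaling, so these counts are not set against all genes. Of the 25 calls in control cells, 16 held under each of 22 alternative settings without a fold threshold, and of the 28 in tKO cells, 22 did. Psma1, Psma7 and Psmd9 lost their control calls under median-of-ratios scaling and without either control line. Psmd2 lost its tKO call under that scaling and without either clone, Psma7, Psmb3 and Psmb4 lost theirs under it and without clone 2, and Psmd11 under it and without clone 1. Groups did not overlap for 22 members lower (39.8% of all genes) and 2 higher (24.5%) in control cells, and for 24 lower (29.8%) and 0 higher (19.3%) in tKO cells. Within the 4 line-and-culture pairs, 30 of the 39 were lower in DM3 in each control pair (46.1% of all genes) and 5 higher in each (30.3%), and 28 were lower (37.8%) and 1 higher (26.0%) in each tKO pair.

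**Figure D2:**
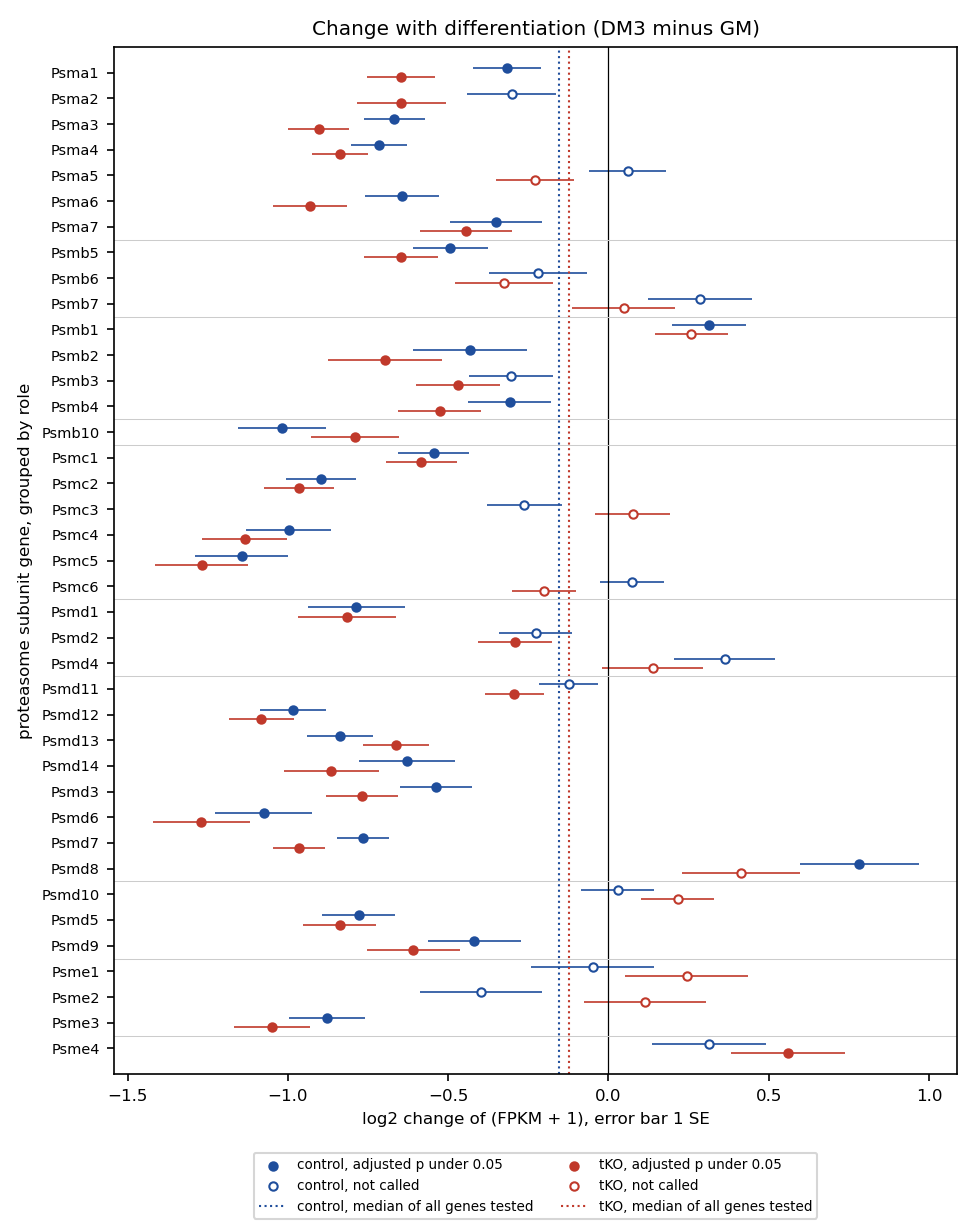
The change from GM to DM3 is plotted for each of the 39 genes tested, in log2 units of FPKM + 1 with bars of 1 SE, for control (blue) and tKO (red) cells. Filled points have an adjusted p under 0.05, and dotted lines mark the medians of all tested genes, -0.15 and -0.12. Most points lie left of those lines, Psmc5 and Psmd6 farthest, and Psmd8, Psme4 and Psmb1 lie to the right in both genotypes.

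The constitutive catalytic subunits did not move alike. Psmb5, which carries the chymotrypsin-like activity, was at 132, 160.1, 156 and 139.6 FPKM in control GM and 93.8, 95.4, 129 and 101 in control DM3. In tKO cells it was at 155, 149, 149 and 163 FPKM in GM and 114, 102, 88.7 and 89.2 in DM3. Every DM3 library lay below every GM library of its genotype. The change was -0.49 (SE 0.12, adjusted p = 0.00159) in control and -0.65 (SE 0.12, adjusted p = 1.54e-04) in tKO cells by limma. In control cells the call was lost under median-of-ratios scaling (-0.29, adjusted p = 0.0744) and without control line 1 (-0.37, adjusted p = 0.112) (all alternatives: 2.30e-04 to 0.112).

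Psmb6, which carries the caspase-like activity, was at 164, 187, 191 and 151 FPKM in control GM and 147, 139, 178 and 132 in control DM3, and at 199, 194, 162 and 180.4 and 206, 139, 136 and 118 in tKO cells. The stages overlapped in both genotypes, and clone 1 culture 1 had the highest value of all in DM3. The limma changes were -0.22 (SE 0.15, adjusted p = 0.222) and -0.33 (SE 0.15, adjusted p = 0.0742), and the tKO value passed under 4 alternatives: with line and culture as a block (adjusted p = 0.0294), with TPM scaling (0.0456), without clone 1 (0.0380) and without its culture 1 in DM3 (0.00305), in a range of 0.00305 to 0.475.

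Psmb7, which carries the trypsin-like activity, was at 158, 169.6, 181 and 144 FPKM in control GM and 229, 166, 248.6 and 163 in control DM3, and at 189.7, 203, 156 and 165 and 235, 160.0, 196 and 154 in tKO cells. In DM3 culture 1 was above culture 2 in all 4 lines. The limma changes were 0.29 (SE 0.16, adjusted p = 0.133) and 0.05 (SE 0.16, adjusted p = 0.814), and in control cells median-of-ratios scaling gave 0.49 with an adjusted p of 0.0333 (all alternatives: 0.0333 to 0.408). The summed FPKM of the 7 alpha and 7 constitutive beta subunits was 1723 ± 121 in control GM and 1500 ± 157 in control DM3 (SD, n = 4), a ratio of 0.870, and 1882 ± 111 and 1420 ± 232 in tKO cells, a ratio of 0.755.

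The promoter letters of a called and an uncalled catalytic gene, of an ATPase that fell in both genotypes and of the lid gene that rose are shown because these genes moved differently in the same cells. Each is the 120 bases before the RefSeq transcription start on GRCm38.p6, on the gene's own strand, and capitals mark TGACNNNGC, the core of the antioxidant response element that Nfe2l1 is known to bind. The windows are chr14:54617996-54618115 on the minus strand for Psmb5, chr11:70525237-70525356 on the plus strand for Psmb6, chr11:106256065-106256184 on the plus strand for Psmc5, and chr7:29180674-29180793 on the minus strand for Psmd8.
Psmb5: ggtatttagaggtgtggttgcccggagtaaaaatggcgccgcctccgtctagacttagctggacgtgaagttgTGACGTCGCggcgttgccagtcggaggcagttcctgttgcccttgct
Psmb6: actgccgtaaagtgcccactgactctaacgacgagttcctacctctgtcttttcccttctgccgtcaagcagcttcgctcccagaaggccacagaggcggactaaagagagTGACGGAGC
Psmc5: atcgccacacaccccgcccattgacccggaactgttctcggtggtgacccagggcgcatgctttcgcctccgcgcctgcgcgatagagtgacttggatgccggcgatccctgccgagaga
Psmd8: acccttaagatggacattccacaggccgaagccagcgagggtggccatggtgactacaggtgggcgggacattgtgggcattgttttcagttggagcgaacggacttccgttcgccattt
Psmb5 and Psmb6 hold the motif in these windows and Psmc5 and Psmd8 do not. Both strands were searched from 250 bases before to 50 after the start for TGACNNNGC and for CCAAT, a common promoter motif. TGACNNNGC was found for 6 of the 36 members with a promoter entry (16.7%, against 13.99% of all 27025 genes with one): Psmb5, Psmb6, Psmc6, Psmd12, Psmd9 and Psme4. Among tested genes alone it was found for 6 of 33 members (18.2%, against 17.0%). Of the members lower in both genotypes, 3 of 20 held it, and of the other tested members 3 of 13. CCAAT was found for 14 of 36 (38.9%, against 41.1%), with 8 of the 20 lower in both genotypes and 4 of the other 13. Among tested genes the share was 36.4% of members against 43.4%. These are matches of letters, and binding was not measured.

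Among the alpha subunits, which form the outer rings and the gate of the core, 5 of 7 tested fell in control cells and 6 of 7 in tKO cells. In control cells Psma4 changed by -0.71 (SE 0.09, adjusted p = 3.78e-06) and Psma3 by -0.67 (SE 0.10, adjusted p = 1.58e-05) in limma, and Psma6 by -0.64. In tKO cells their changes were -0.84, -0.90 and -0.93. Psma5 was the alpha subunit called in neither genotype, at 81.6 ± 6.22 FPKM in control GM and 85.2 ± 8.27 in control DM3. Its tKO change of -0.23 passed with line and culture as a block (adjusted p = 0.0270). Of the 4 structural beta subunits, Psmb2 and Psmb4 fell in control cells (-0.43 and -0.31 log2, adjusted p = 0.0451 and 0.0475 by limma), and Psmb2, Psmb3 and Psmb4 in tKO cells. The control calls of Psmb2 and Psmb4 were lost under median-of-ratios scaling and without either control line.

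Psmb1 went the other way from most of the core. It was at 199, 200, 209 and 182 FPKM in control GM and at 249.9, 258, 251 and 224 in control DM3, each DM3 library above each GM library. In tKO cells it was at 182, 143, 197 and 185 and 245, 184, 215 and 201, where the stages overlapped and clone 1 culture 2 was the lowest library of each stage. The rise was 0.31 (SE 0.12, adjusted p = 0.0262) in control cells by limma, and the tKO value was 0.26 (SE 0.12, adjusted p = 0.0611). The control call was narrow: its adjusted p ranged from 0.00448 to 0.277 over the alternatives and missed the threshold without either control line (0.277 without line 1, 0.161 without line 2). With line and culture as a block the tKO value passed (adjusted p = 0.0234).

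The ATPase ring held 2 of the genes that fell most, Psmc5 and Psmc4. Psmc5 was at 95.4, 115, 123 and 99.6 FPKM in control GM and at 50.5, 42.3, 53.6 and 46.8 in control DM3. In tKO cells it was at 129.7, 146, 108 and 123 in GM and 56.96, 67.2, 42.2 and 44.3 in DM3. The stages were far apart in both genotypes, and the change was -1.14 (SE 0.14, adjusted p = 4.92e-06) in control and -1.27 (SE 0.14, adjusted p = 1.57e-06) in tKO cells by limma. Psmc4, its neighbour in the ring, was at 48.2, 53.6, 58.1 and 49.7 FPKM in control GM and 28.1, 21.7, 29.3 and 24.3 in control DM3, and at 69.7, 72.3, 57.02 and 64.1 and 32.4, 35.5, 23.0 and 27.7 in tKO cells. Its change was -0.997 (SE 0.13, adjusted p = 8.55e-06) and -1.14 (SE 0.13, adjusted p = 2.12e-06), again without overlap. Psmc1 and Psmc2 fell in both genotypes too (-0.55 and -0.90 log2 in control cells), and Psmc3 and Psmc6 were called in neither (-0.26 and 0.07 in control, 0.08 and -0.20 in tKO cells), although Psmc3 passed in control cells with line and culture as a block (adjusted p = 0.0421). Under median-of-ratios scaling Psmc6 was called higher in control cells (0.28, limma adjusted p = 0.0243). The 6 ATPases summed to 639 ± 33.9 FPKM in control GM and 449 ± 49.6 in control DM3 (SD, n = 4), a ratio of 0.702, and the tKO ratio was 0.700.

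Of the other base subunits, the scaffold Psmd1 fell in both genotypes (-0.79 and -0.81 log2) and the scaffold Psmd2 in tKO cells only by call (-0.29 (SE 0.12, adjusted p = 0.0368) by limma). The ubiquitin receptor Psmd4 was called in neither, at 63.2 ± 3.43 FPKM in control GM and 82.3 ± 12.9 in control DM3. Its control change of 0.36 (limma adjusted p = 0.0557) passed under median-of-ratios scaling (0.57, adjusted p = 0.0169).

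In the lid, which removes ubiquitin from the substrate, 6 of 8 genes fell in control and 7 of 8 in tKO cells, and 1, Psmd8, rose in control cells. Psmd6 was at 110.1, 116, 115 and 114 FPKM in control GM and at 63.4, 42.6, 54.6 and 55.5 in control DM3. In tKO cells it was at 115, 133, 112 and 137 and 36.4, 60.9, 47.6 and 62.1. No DM3 library reached the GM range, and the change was -1.07 (SE 0.15, adjusted p = 1.54e-05) in control and -1.27 (SE 0.15, adjusted p = 2.65e-06) in tKO cells by limma. Psmd14, the deubiquitinase of the lid, changed by -0.63 and -0.86 log2, and Psmd12, Psmd13, Psmd3 and Psmd7 fell by 0.54 to 0.98 log2 in control cells. The control call of Psmd14 was lost without control line 2.

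Psmd8 is the lid subunit that is added last in assembly. It was at 82.2, 90.7, 93.2 and 89.6 FPKM in control GM and at 170.4, 157, 178 and 117 in control DM3, all DM3 libraries above all GM libraries. In tKO cells it was at 114, 133, 102 and 117 in GM and 234, 133, 168 and 110.0 in DM3, where the stages overlapped and culture 1 was above culture 2 in both clones. The rise was 0.78 (SE 0.18, adjusted p = 0.00160) in control cells by limma, and the tKO value was 0.41 (SE 0.18, adjusted p = 0.0629). Without control line 1 the control change was 0.65 with an adjusted p of 0.107, the upper end of its range (1.35e-04 to 0.107). Median-of-ratios scaling gave 0.58 in tKO cells with an adjusted p of 0.0315. By mean FPKM Psmd8 was the 18th member in control GM and the 4th in control DM3.

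Of the chaperones that help build the base, Psmd5 changed by -0.78 and -0.84 log2 and Psmd9 by -0.42 and -0.61, and Psmd10 (gankyrin) was called in neither (0.03 and 0.22). Under median-of-ratios scaling Psmd10 was called higher in tKO cells.

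The activators, which open the core without ubiquitin, split by gene. Psme3, the nuclear PA28 gamma, was at 57.3, 63.6, 61.5 and 63.8 FPKM in control GM and 35.0, 27.3, 35.9 and 34.6 in control DM3, and at 68.4, 75.4, 59.8 and 76.3 and 29.4, 40.3, 29.7 and 34.2 in tKO cells. It fell without overlap, with changes of -0.88 (SE 0.12, adjusted p = 1.01e-05) and -1.05 (SE 0.12, adjusted p = 1.50e-06) in limma. Psme4 (PA200), which is known for work on acetylated histones, was at 23.8, 17.5, 20.6 and 22.4 FPKM in control GM and 29.7, 24.4, 23.3 and 28.1 in control DM3, and at 23.3, 16.5, 20.98 and 15.4 and 18.2, 32.4, 31.4 and 33.6 in tKO cells. The changes were 0.31 (SE 0.18, adjusted p = 0.136) and 0.56 (SE 0.18, adjusted p = 0.0120), so only the tKO rise passed, although clone 1 culture 1 was within the GM range, and the interaction was 0.25 (SE 0.25, adjusted p = 0.751). Without clone 2 the tKO value was 0.30 with an adjusted p of 0.323, in a range of 2.72e-04 to 0.323, and in control cells median-of-ratios scaling gave 0.51 with an adjusted p of 0.00914.

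Psme1 and Psme2, the interferon-inducible PA28 alpha and beta, were called in neither genotype. Psme1 was at 12.8, 15.1, 16.2 and 14.3 FPKM in control GM and 11.8, 15.7, 14.7 and 14.3 in control DM3, and at 8.46, 7.07, 15.3 and 14.1 and 11.3, 10.97, 14.1 and 15.6 in tKO cells. Psme2 was at 108, 124, 115 and 112 FPKM in control GM and 77.6, 92.2, 80.2 and 97.8 in control DM3, and at 74.6, 61.6, 109 and 144 and 95.9, 105, 90.1 and 109.8 in tKO cells. Both were lowest in clone 1 in GM, and the highest Psme2 value was that of clone 2 culture 2, the library that stood apart in interferon genes. Psme1 was not highest there (14.1 FPKM, against 15.3 in culture 1 of the same clone), and Psmb8 and Psmb9 had 0 fragments there. Without that library the tKO minus control difference in GM was -0.54 for Psme1 and -0.52 for Psme2 (limma adjusted p = 0.184 and 0.107), against -0.41 and -0.31 with it (0.276 and 0.431). The changes with differentiation were -0.05 (SE 0.19, adjusted p = 0.841) and 0.24 (SE 0.19, adjusted p = 0.285) for Psme1, and -0.40 (SE 0.19, adjusted p = 0.0795) and 0.11 (SE 0.19, adjusted p = 0.627) for Psme2, by limma. In control cells every Psme2 value in DM3 was below every one in GM. Fitted with only the compared libraries, its control change passed (-0.40, limma adjusted p = 0.00281). Without clone 2 the tKO changes passed, at 0.47 for Psme1 (adjusted p = 0.0252) and 0.56 for Psme2 (adjusted p = 0.00719), and without clone 2 culture 2 in GM alone they did not (adjusted p = 0.125 and 0.0862). Psme2 has a near copy, Psme2b (2.11 to 6.94 FPKM), so part of its reads could be assigned either way.

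**Figure D3:**
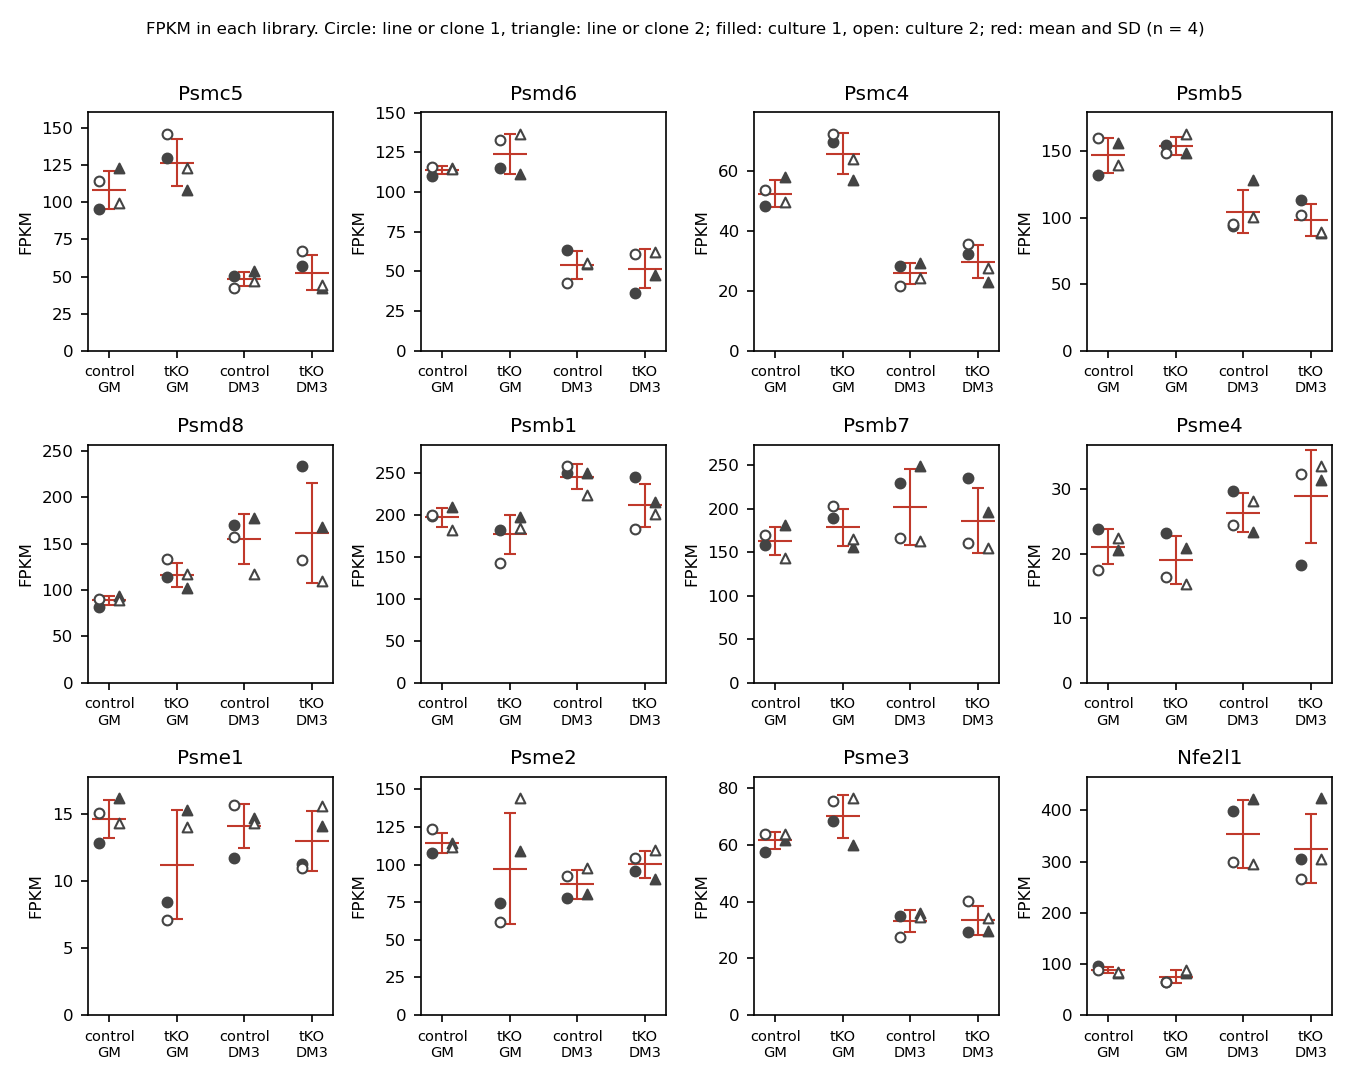
FPKM is plotted in each of the 16 libraries for 11 proteasome genes and for Nfe2l1, with circles for line or clone 1, triangles for line or clone 2, filled symbols for culture 1, open symbols for culture 2, and red bars for the mean and SD of 4. Psmc5, Psmd6, Psmc4, Psmb5 and Psme3 separate the stages in both genotypes. In DM3 the filled symbols of Psmb7 and Psmd8 lie above the open ones of the same line.

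The inducible catalytic subunit Psmb10, which replaces Psmb7 in the immunoproteasome, was the only one of its kind above the floor throughout. It was at 13.2, 14.9, 14.5 and 14.9 FPKM in control GM and 7.30, 6.18, 6.90 and 6.04 in control DM3, and at 10.6, 10.8, 14.4 and 17.3 and 8.17, 7.14, 7.13 and 6.10 in tKO cells. The stages did not overlap, and the changes were -1.02 (SE 0.14, adjusted p = 9.42e-06) and -0.79 (SE 0.14, adjusted p = 1.10e-04) in limma. Its highest library was again clone 2 culture 2 in GM, without which the tKO change was -0.66 (adjusted p = 3.80e-04). Of 16 tested genes of the interferon response and antigen processing, 5 were higher (23.2% of all genes) and 1 lower (38.3%) in control DM3, and 6 (24.9%) and 1 (36.0%) in tKO DM3. B2m, the light chain of class I molecules, rose by 1.62 (SE 0.19, adjusted p = 1.90e-06) and 1.02 (SE 0.19, adjusted p = 1.76e-04), and Tapbp (tapasin) by 0.88 and 1.17, while Erap1, which trims peptides, changed by -1.24 and -0.83.

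Genes that build, regulate or transcribe the proteasome were tested as a list of 17. In control DM3 9 were lower (38.3% of all genes) and 1 was higher (23.2%), and in tKO DM3 11 (36.0%) and 1 (24.9%). The one that rose was Nfe2l1 (Nrf1), the transcription factor known to induce subunit genes when proteasome activity is short. It was at 95.8, 87.7, 82.4 and 84.5 FPKM in control GM and 399, 299, 421 and 295 in control DM3, and at 63.7, 64.7, 83.0 and 88.1 and 306, 267, 423 and 305 in tKO cells. Every DM3 library was above every GM library, and the rise was 1.99 (SE 0.16, adjusted p = 3.90e-08) and 2.10 (SE 0.16, adjusted p = 2.28e-08) by limma. Its mRNA level does not measure the processed, active protein. Among those that fell, the core assembly chaperone Psmg1 changed by -0.84 and -0.94, the inhibitor Psmf1 by -0.74 and -0.91, and the deubiquitinases Uchl5 and Usp14 by -0.68 and -0.67 in control and -1.003 and -1.01 in tKO cells. Psmg2, the partner of Psmg1, changed by -0.54 and -1.14.

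Upstream of the proteasome, 6 of 22 tested genes of ubiquitin, its enzymes and its shuttles were higher (23.2% of all genes) and 7 lower (38.3%) in control DM3, and 4 (24.9%) and 9 (36.0%) in tKO DM3, shares close to those of the whole table. The muscle ligases Trim54, Trim55 and Fbxo32 rose by 2.82, 1.85 and 1.54 log2 in control cells and by 1.95, 1.96 and 1.83 in tKO cells. Trim54 and Trim55 were at most 1.27 and 0.149 FPKM in any GM library. Other listed ligases had lower means in DM3. Fbxo30 went from 9.24 to 6.25 FPKM in control and 10.5 to 5.99 in tKO cells. Mdm2 went from 78.0 to 55.9 and 100.2 to 51.5, and Stub1 from 47.8 to 38.4 and 42.4 to 36.85. Trim63 rose by 1.49 and 1.63 from at most 0.114 FPKM in any GM library. The E1 enzyme Uba6 changed by -1.06 and -0.81, and the segregase Vcp by -0.55 and -0.50.

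In DM3 the 2 culture numbers differed for many subunits. FPKM was lower in culture 2 than in culture 1 in all 4 lines for 15 of the 39 members tested, 38.5%, against 10.4% of all genes, and higher for 2 (Psmc6 and Psme2), 5.13% against 22.7%. For Psmd8 culture 2 was lower by 0.12, 0.59, 0.81 and 0.61 log2 in control lines 1 and 2 and clones 1 and 2, and for Psmb7 by 0.46, 0.60, 0.55 and 0.34. In GM 2 members were lower in culture 2 in all 4 lines (17.0% of all genes) and 3 higher (14.5%). The myotube markers also differed by this number in tKO DM3, where the 8 genes summed to 1393 and 1437 FPKM in culture 1 of clones 1 and 2 and to 341 and 479 in culture 2. In control DM3 they summed to 1101 and 852 in culture 1 of lines 1 and 2 and to 1355 and 901 in culture 2. The part of these markers in the subunit values was not tested. With the culture number as a block, 29 members were called in control and 29 in tKO differentiation, and 0 between genotypes at either stage.

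Between the genotypes no subunit passed the test at either stage. In GM 0 of the 39 were called by limma (2.06% of all genes), with 7 at an unadjusted p under 0.05, and voom on the recovered fragments gave 0 calls and 5 at that p. In DM3 0 were called (3.38% of all genes), with 0 at an unadjusted p under 0.05, and voom gave 0 and 0. The GM changes ran from -0.41 (Psme1) to 0.46 (Psmb2) with a median of 0.12, against -0.01 for all genes, and 28 of 39 were above 0. The DM3 changes ran from -0.23 (Psmd1) to 0.22 (Psmc3) with a median of -0.02, against 0.01. The SE of a change was 0.081 to 0.192 log2 over the members, so shifts of that size could not be told from 0 here. Larger ones were not called either, such as Psma3 at 0.288 (SE 0.095, limma adjusted p = 0.126) and Psmb2 at 0.455 (SE 0.178, adjusted p = 0.195) in GM. GM groups did not overlap for 6 members higher in tKO (5.38% of all genes) and 2 lower (8.62%), namely Psma1, Psma3, Psmb2, Psmb3, Psmc1 and Psmd8, and Psmd1 and Psmd13. In DM3 it was 0 higher (4.22%) and 1 lower, Psmd7 (4.30%).

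**Figure D4:**
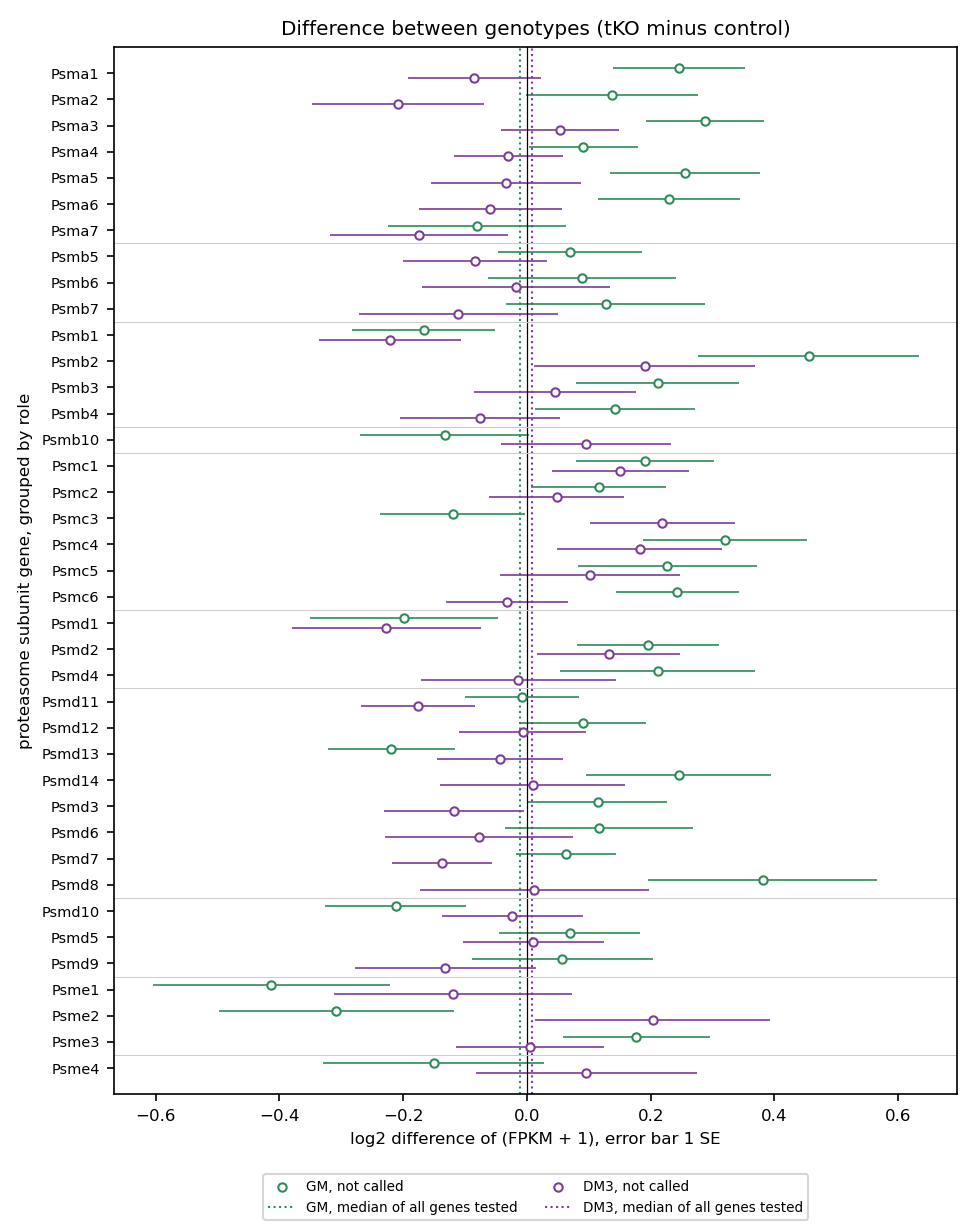
The difference tKO minus control is plotted for each of the 39 genes tested, in log2 units of FPKM + 1 with bars of 1 SE, in GM (green) and DM3 (purple). All points are open because none had an adjusted p under 0.05, and dotted lines mark the medians of all tested genes, -0.01 and 0.01. Green points lie mostly right of 0 (28 of 39), with Psme1 and Psme2 to the left.

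In GM clone 1 stood apart from the other libraries for more members than clone 2 did. For the 6 members higher and the 2 lower without overlap, both clones lay on the same side of all control libraries, which follows from the definition of no overlap. Both clone 1 libraries were above the other 6 GM libraries for 16 of 39 members (12.7% of all genes) and below them for 4, Psmb1, Psmb10, Psme1 and Psme2 (14.1%), where clone 2 gave 1 and 1 (2.79% and 3.54%). Psmb2, a structural beta subunit, was at 125, 132, 85.2 and 91.8 FPKM in tKO GM and 73.6, 79.2, 82.7 and 75.0 in control GM, so the clone 1 pair stood apart from the clone 2 pair. Without clone 2, limma called 4 members in GM (11.1% of all genes): Psme1 at -0.83 (adjusted p = 0.00291, range over its alternatives 0.00291 to 0.995), Psme2 at -0.75 (0.00347, range 0.00347 to 0.984), Psmb2 at 0.72 (0.0139, range 0.0139 to 0.959) and Psma1 at 0.40 (0.0414, range 0.0414 to 0.960). Such a fit compares 1 clone with 2 control populations. In DM3 the pattern over clones was another one: clone 1 was above the other 6 libraries for 7 members (7.97%) and below for 2 (10.4%), while clone 2 was above for 0 (5.75%) and below for 10 (4.94%). The cases named here for their clone were picked out after their values were seen.

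For the question of direct targeting, the mature sequence of miR-206-3p is shown, from RefSeq on GRCm38.p6 (chr1:20679055-20679076, plus strand), with its seed in capitals, beside the 2 matches found in the 3′ untranslated regions of tested members. The matches are from GENCODE M21 on GRCm38, chr12:70996310-70996339 on the plus strand for Psma3 and chr2:180036707-180036736 on the minus strand for Psma7, with the 7 bases that pair with the seed in capitals.
miR-206-3p: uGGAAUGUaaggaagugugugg
Psma3: atgcattaaaaACATTCCtgtattttgcca
Psma7: cttgcttaacaACATTCCcactcccatctg
Of the 39 members 2 held a seed match (5.13%), against 2044 of 10799 tested genes with such a region (18.9%), and the median region was 294 bases long for members against 1191. Psma3 was 0.29 log2 higher in tKO than control in GM and 0.05 in DM3, and Psma7 -0.08 and -0.17, none of them called (limma adjusted p = 0.126, 0.836, 0.822 and 0.583). The host transcript of Mir206 counted 0 to 4 fragments in control GM libraries and 59 to 608 in control DM3 libraries. A match of letters does not show that the site is used.

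The change with differentiation was compared between genotypes through the interaction. No member was called by limma (0 of 39, against 0.254% of all genes), with 1 at an unadjusted p under 0.05, and voom gave 0 and 0. The interaction was below 0, meaning a more negative change in tKO cells, for 32 of 39, with a median of -0.15 against 0.03 for all genes. With TPM scaling it was 26 of 39 and the median -0.08 against 0.11. Psme2 had the highest value, 0.51 (SE 0.27, adjusted p = 0.514), and Psmd8 the lowest, -0.37 (SE 0.26, adjusted p = 0.631). Without clone 2 Psme2 was called (0.95, adjusted p = 0.0330, range over its alternatives 0.0330 to 1.00; 0.854% of all genes). The interaction is the DM3 difference minus the GM difference, so it uses the same libraries as those comparisons.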

How the data were processed

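Poly(A) RNA of 16 C2C12 samples was sequenced, 4 libraries in each of 4 groups taken from the sample titles. The authors deposited 1 table of FPKM values per gene; STAR, DESeq and the build mm10 are named in the submitters' processing notes, with no role, and the counter, annotation, settings and use of strand are not given in the sources used here. Without strand, overlapping genes share reads. No value column was left unmapped (0).

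FPKM times gene length gave whole multiples of 1 fragment for 100% of values under 5000 fragments (tolerance 0.01), which recovered fragment numbers and depth. A count of 0 allows up to 3 fragments, a limit of counting error only.

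limma 3.58.1 (R 4.3.3, trend and robust) was fitted to log2(FPKM + 1) of the 11832 genes with a mean of at least 0.5 FPKM, over all 16 libraries, with Benjamini-Hochberg adjustment over all of them and calls at adjusted p under 0.05. A fold change on this scale understates that of low genes. The steps were tested on simulated data. Alternatives were the pseudocount 0.1, filters, TPM and median-of-ratios scaling, moderation, voom, blocks, lines and libraries left out.

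The symbol rule for the members used no measured value, but it, the lists and the other rules were set with earlier results of these data known. Named with values in every library were the catalytic subunits, the activators, genes called between genotypes, and the 3 called members with the largest rise and fall in each differentiation comparison; list genes were limited to 3 a direction, and others named were chosen after their values were seen. Of 43 members, 43 matched GENCODE M21 by identifier, 29 with the same start and end.

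Stages share cell lines, which pairs them: deviations of the same line and culture number correlated at 0.0923 to 0.291 in control and 0.0771 to 0.323 in tKO cells. In tKO cells those of the same line and the other number correlated at 0.199 to 0.361 and in control cells at -0.298 to -0.146. Between genotypes not every pair of the same number correlated above 0.1, so the number was not taken to pair them. The lowest stage pairs missed that limit too. In GM the number still separated the pairs, at 0.0955 to 0.452 for the same number and -0.419 to -0.0558 for the other. In DM3 these ranges overlapped (-0.224 to 0.558 and -0.456 to 0.338). The main genotype test in GM therefore leaves out a structure by culture number, which was fitted as a block only among the alternatives. The main differentiation tests likewise leave out the pairing by line and culture number, which was also fitted as a block only among the alternatives.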

Additional observations from a re-analysis of the deposited data

Results flagged for a closer look

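Among 52 groups of 4 libraries of the 13 named subunits tested, 2 held a library far from the other 3, where chance gives about 1 in 20. Psme3 in control DM3 was lowest in line 1 culture 2, at 27.3 FPKM, with the other 3 libraries at 34.6 to 35.9. Psme4 in tKO DM3 was lowest in clone 1 culture 1, at 18.3 FPKM, with the others at 31.4 to 33.6.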

How the results depend on the processing

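The counts of called subunits stayed within 1.5 times their main value under all alternatives but those given here. Without clone 2, 4 subunits were called between genotypes in GM (11.1% of all genes) and 1 in the interaction (0.854%), where 0 were otherwise. In the main fit the shares of all genes were 2.06% and 0.254%. With a fold threshold of 1 log2 unit, 3 were called in control and 5 in tKO differentiation, since fewer genes reach that size. No share of all genes is given at that threshold. Leaving out 1 library at a time gave 0 in GM, 0 in DM3 and 0 in the interaction, 20 to 26 in control and 27 to 30 in tKO differentiation. Without control line 1 the control count was 17, and without line 2 it was 18. With line and culture as a replicate block the counts were 28 in control and 31 in tKO differentiation, and with the culture number as a block 0 were called between genotypes at either stage and in the interaction. In that pairing check, libraries of the same culture number in the 2 genotypes correlated at 0.0955 to 0.452 in GM and -0.224 to 0.558 in DM3, and of the other number at -0.419 to -0.0558 and -0.456 to 0.338. Of 1664 values of named subunits under alternatives, 1622 kept their side of the threshold, 18 lost a call, 24 gained one and 0 called values changed sign. The genotype comparisons rest on 2 clones, and Psma8, Psmb8, Psmb9 and Psmb11 had too few fragments for a fold.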

Other observations

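Ubb, which encodes ubiquitin, the tag that the proteasome recognises, was picked out here after its values were seen. It was at 298, 364, 337 and 312 FPKM in control GM and 404, 474, 436 and 392.1 in control DM3, a rise of 0.38 log2 (SE 0.14, limma adjusted p = 0.0225), and each DM3 library was above each GM library. Ubb was not called in tKO cells, where it was at 376, 367, 326 and 308 FPKM in GM and 535, 366, 420 and 332 in DM3, and the difference between genotypes in the change with differentiation was not called for any of the 22 genes of the ubiquitin list.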
